A study of Canis lupus familiaris with 6 samples.

Results

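miR-191 and miR-425 (cfa-miR-191 and cfa-miR-425 on the arrays) are 2 of the 289 canine miRNAs measured in a series on mammary cancer stem cells. They were chosen by name, with their detection and total signal on the 6 arrays already known, so their levels are a description. Where fits across all miRNAs are given, nothing is read from whether the members were called. Each has 2 probes, giving 4 of 656 probes and 80 of 11560 spots per array. The cells came from 3 canine mammary cancer lines, named CMT-U27, P114 and CMT-U309. Sorting by flow cytometry on Sca1 (stem cell antigen 1, a surface protein of stem and progenitor cells) split each line into Sca1+ cells, which the labels call cancer stem cells, and Sca1- cells, which they call the control. There was 1 sample per line and fraction, hence 3 samples per fraction and 2 per line, and nothing in the labels says how the cultures were separated. All cells were grown in serum-containing RPMI-1640. The descriptions of both P114 samples speak of growth with macrophages and those of the other 4 samples of mono-culture, while titles and sources mention no macrophages.

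The genes of miR-191 and miR-425 lie side by side and are transcribed together, after which each hairpin is cut into a mature miRNA of its own. A mature miRNA guides Argonaute proteins to messenger RNAs that pair with its seed, near its 5′ end. In human breast cancer cells the pair is known as responsive to estrogen through the estrogen receptor ESR1, and both miRNAs are widely expressed and often raised in tumours. The probes map to chromosome 20 of the canFam2 build, and the starts of the probe intervals of the 2 miRNAs are 478 bases apart. In the RefSeq annotation of another assembly (UU_Cfam_GSD_1.0), both names matched. There MIR191 and MIR425 are next to each other, followed by DALRD3, a gene whose human counterpart holds the cluster in an intron, and preceded by NDUFAF3, a complex I assembly factor. In that annotation neither lies inside the span of DALRD3 or NDUFAF3.

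The probe sequences decide which molecules were measured, and are given 5′ to 3′ as DNA. Probes of this kind are complementary to the mature miRNA from its 3′ part onward. How far they reach into the seed was not checked. The capital marks the base by which the longer probe exceeds the shorter.
miR-191 shorter probe: agctgcttttgggatt
miR-191 longer probe: agctgcttttgggattC
miR-425 shorter probe: tcaacgggagtgatcgt
miR-425 longer probe: tcaacgggagtgatcgtG

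The miR-191 probes are 16 and 17 bases long, and the files place the longer one at chr20:43143428-43143443. The miR-425 probes are 17 and 18 bases long, with the longer one at chr20:43143906-43143922. Each deposited interval is 1 base shorter than its probe. The miRNA stretch with which each longer probe pairs, again 5′ to 3′, is its reverse complement, with the base paired by the added probe base in capitals.
miR-191 stretch: Gaatcccaaaagcagct
miR-425 stretch: Cacgatcactcccgttga
The longest run of bases shared by a miR-191 and a miR-425 probe is 4. The longest run shared with a probe of any other miRNA on the array is 7 bases for miR-191 (with miR-145) and 8 for miR-425 (with miR-149).

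The arrays differed widely in brightness, and 2 sources name their samples differently. 3 bright arrays, B1, B2 and B3, detected 89 to 111 miRNAs with summed signals of 69282 to 70794 intensity units. On the 3 dim arrays, D1 gave 39 detected miRNAs and a sum of 3228, D2 gave 22 and 1277, and D3 gave 9 and 319.5. By the scanner files, B1 and B2 are Sca1+ and Sca1- of CMT-U309, D1 and D2 are Sca1+ and Sca1- of CMT-U27, and D3 and B3 are Sca1+ and Sca1- of P114. By the deposited value table, B1 and B3 are Sca1+ and Sca1- of P114, D1 and B2 those of CMT-U27, and D2 and D3 those of CMT-U309. B1 is Sca1+ and B2 and B3 are Sca1- in both readings. Fits follow the scanner files unless the value table is named. All 6 arrays shared 1 slide and 1 scan date.

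Both miRNAs were detected on the bright arrays and on none of the dim ones. The total gene signal (the scanner software's sum over a miRNA's detected probes, after its background subtraction) of miR-191 was 417 ± 36.4 on B1, 185 ± 18.0 on B2 and 149 ± 14.3 on B3, the error being the software's own estimate for 1 array. The signal of miR-191 was thus highest on B1, and B2 and B3 lay close together. For miR-425 it was 121 ± 11.4 on B1, 30.5 ± 6.46 on B2 and 22.4 ± 4.85 on B3. The order of the arrays was the same, with a wider gap between B1 and the others. On D1, D2 and D3 both were listed at 0.1, the value that stands for not detected. Detection on B1, B2 and B3 and on no dim array was shared by 38 miRNAs, and 78 were detected on all 3 bright arrays.

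**Figure D1:**
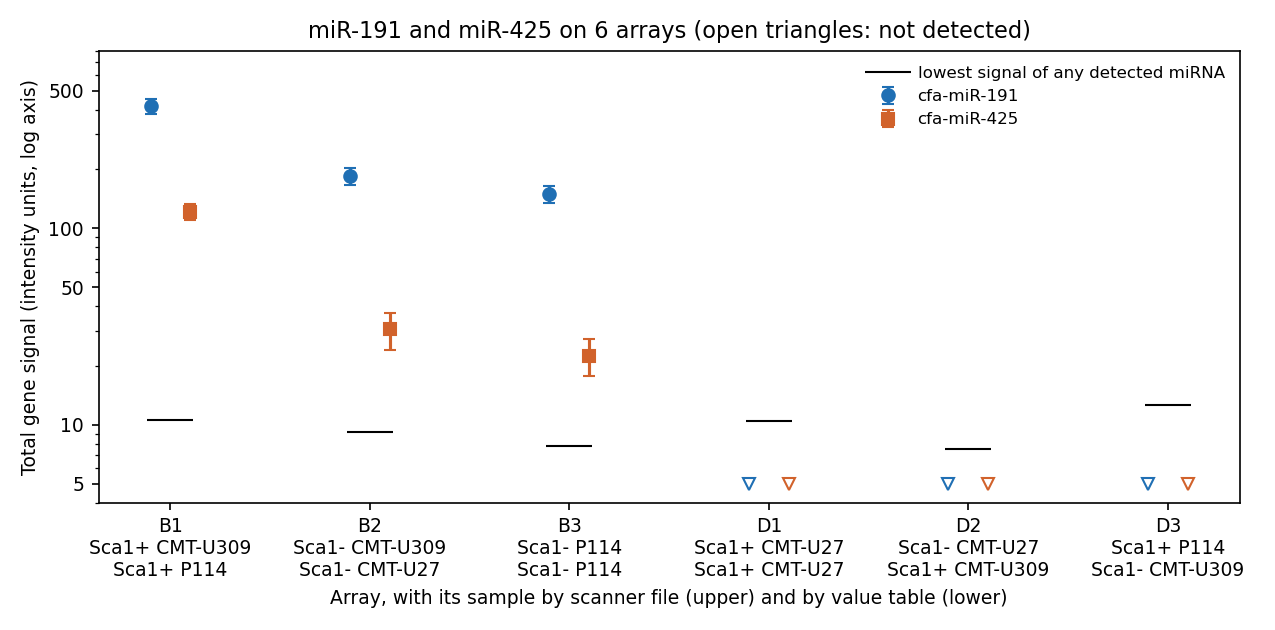
Total gene signal (intensity units, log axis) of miR-191 (circles) and miR-425 (squares) on each array, with the scanner software's error as bars, open triangles at the bottom for not detected, and the lowest signal of any detected miRNA on that array as a black dash. Both are highest on B1 (417 and 121) and not detected on D1, D2 and D3; labels under the axis give the sample by scanner file and by value table.

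B1 exceeded B2 and B3 by more than the error of the signals. Of the 78 miRNAs detected on all 3 bright arrays, 51 (65.4%) had a higher signal on B1 than on both others, 14 of them over 2-fold, and 20 a lower one. For miR-191 the signal on B1 was 2.26 ± 0.296 times that on B2 and 2.79 ± 0.363 times that on B3. For miR-425 these ratios were 3.97 ± 0.921 and 5.40 ± 1.27. The sum for miR-425 holds both probes on B1 and, on B2 and B3, only the longer one. From the longer probe alone the signal was 99.7 on B1, 30.5 on B2 and 22.4 on B3, still highest on B1 by a wide margin. Between B2 and B3 the difference was 35.5 ± 23.0 units for miR-191 and 8.06 ± 8.08 for miR-425, the latter no larger than its error. By scanner file B1 and B2 are the fractions of 1 line, and by value table B1 and B3 are, so the ratio within a line is one or the other of these. Shares of the summed signal gave the same picture. miR-191 took 0.601% of it on B1, 0.261% on B2 and 0.212% on B3, and miR-425 took 0.175%, 0.0431% and 0.0320%.

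The spots behind these sums separated B1 from the other arrays in both probes of both miRNAs. Each probe had 20 spots per array, of which outlier-flagged ones were left out. The longer probe of miR-191 had processed signals from 245 to 292 on B1 (median 256, mean 261 ± 12.4 SD, 19 spots). On B2 its 20 spots ran from 108 to 132 (median 117), and on B3 from 80.1 to 108 (median 90.8). The lowest spot on B2 (108.0) was just above the highest on B3 (107.6), so no spot of this probe was shared in range by any pair of bright arrays. The longer probe of miR-425 ran from 68.1 to 80.9 on B1 (median 73.1, 15 spots). It ran from 18.9 to 26.5 on B2 (median 22.5) and from 12.8 to 21.0 on B3 (median 16.2), so B2 and B3 overlapped. Spots of 1 array measure the array and not the cells, so their spread carries no information on replicate cultures.

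The shorter probes were dimmer. For miR-191 the mean was 46.0 on B1, 19.1 on B2 and 15.8 on B3, the lowest B1 spot being at 41.6 and the highest spot on B2 or B3 at 26.1. For miR-425 it was 15.9 on B1, 3.94 on B2 and 1.198 on B3. There 17 of 20 spots were well above background on B1, 0 on B2 and 1 on B3, so miR-425 rests on its longer probe alone on those arrays. The longer probe of miR-191 gave 5.68, 6.18 and 5.89 times the signal of the shorter on B1, B2 and B3. That of miR-425 gave 4.63 times on B1 and 5.76 times on B2, where the shorter probe's total of 5.30 ± 5.72 was below its error. On B3 its shorter probe was too near background for a ratio. The comparison took in miRNAs with 2 such nested probes that were detected on the array with a shorter-probe total above 5 units. Their median ratio was 1.95 on B1 (88 miRNAs), 2.01 on B2 (76) and 2.15 on B3 (70). Among these, from the highest, miR-191 ranked 5, 5 and 6 on B1, B2 and B3, and miR-425 ranked 8 on B1 and 7 on B2. miRNAs with a dimmer shorter probe were left out, so the ranks are not over all nested pairs.

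**Figure D2:**
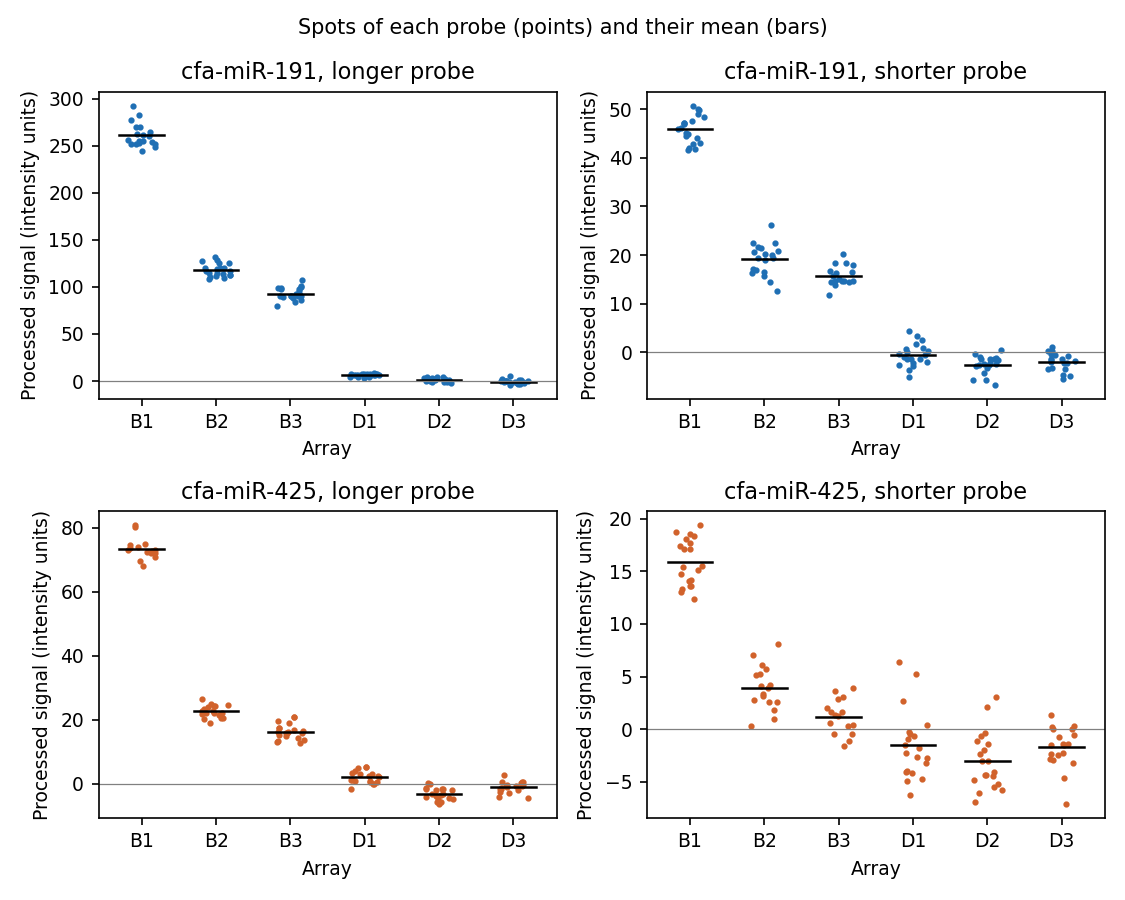
Processed signal (intensity units, linear axes that differ between panels) of each spot of the longer and shorter probes of miR-191 and miR-425 on the 6 arrays, with the mean as a bar. In all 4 panels the lowest spot on B1 lies above the highest on B2 and B3. On the dim arrays the means run from -3.08 to 6.47, the highest being the longer miR-191 probe on D1. Spots of the shorter miR-425 probe on B2 and B3 overlap those on the dim arrays.

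On the dim arrays, the signal each miRNA would have at its share on a bright array was set against the lowest signal detected. If miR-191 took the same share of the summed signal as on B1, it would read 19.4 on D1, 7.68 on D2 and 1.92 on D3. With its share on B2 or B3, it would read 8.42 or 6.86 on D1. The lowest signal of a detected miRNA was 10.4 on D1, 7.51 on D2 and 12.6 on D3. miR-425 at its B1 share would read 5.65, 2.23 and 0.559, below that limit on all 3 arrays. A share like that on the bright arrays was therefore not detectable at this depth for miR-425, nor for miR-191 at its B2 or B3 share. At its B1 share miR-191 would have passed the limit on D1, by a wide margin, and just passed it on D2, but not on D3.

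Below the detection flag, the longer miR-191 probe on D1 stood apart from the background. Its 20 spots ran from 2.88 to 8.32 (median 6.63, mean 6.47 ± 1.54 SD), all above 0, with a total probe signal of 8.58 ± 3.41. The 384 probes of the 165 miRNAs detected on no array had means with a median of -1.02 on D1 and a highest value of 5.58, and 0 of 384 reached the miR-191 probe. Those probes are low partly by choice, since their miRNAs were undetected on D1 too. Of 41 miRNAs detected on all bright arrays and not on D1, 8 had a probe above all of these, miR-191 among them. The shorter miR-191 probe did not stand apart on D1, with a mean of -0.55 that 145 of the 384 reached. The longer miR-425 probe had a mean of 2.14 on D1, which 19 of 384 reached. On D2 and D3 the longer miR-191 probe averaged 1.44 (28 of 384 reached it) and -0.52 (146), and the longer miR-425 probe averaged -3.08 and -0.95. D1 is Sca1+ of CMT-U27 in both readings.

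The relation of the 2 miRNAs to each other was then read within each array, where scaling between arrays plays no part. The ratio of miR-191 to miR-425 was 3.44 on B1, 6.05 on B2 and 6.64 on B3, in log2 1.78 ± 0.19, 2.60 ± 0.34 and 2.73 ± 0.34 with the software's errors. Probes differ in how strongly they bind, so a single ratio is not a ratio of molecules, and only its change between arrays is read. It was higher by 0.82 ± 0.38 on B2 and by 0.95 ± 0.39 on B3 than on B1, and B3 and B2 differed by 0.13 ± 0.48. Both miRNAs were highest on B1, and miR-425 by the wider margin. The total for miR-425 on B1 includes its shorter probe, which those on B2 and B3 do not. From the longer probes alone the changes were 0.55 and 0.68. With normexp background correction, a model-based method that adds an offset to all spots, they were 0.38 and 0.28.

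To place that change, it was set beside those of other miRNAs made close together. On the array 39 pairs lie within 10 kb of each other and were detected on B1, B2 and B3. The log2 ratio of a pair's total gene signals ranged over 0.09 to 1.30 between the 3 arrays, with a median of 0.56. miR-191 with miR-425 ranged over 0.95, the eighth widest. That range includes the shorter miR-425 probe on B1 alone, and from the longer probes it was 0.68. The other pairs were not read from single probes, so the rank holds for total gene signals only. Wider were let-7c with miR-99a (1.30), miR-29b with miR-29c (1.23) and 5 pairs of the miR-17 family clusters, miR-17 with miR-19b widest among them (1.30). Close pairs such as miR-106b with miR-25 (0.20) and miR-30b with miR-30d (0.23) stayed nearer to constant. Many pairs share a miRNA, so they are not independent, and some members have copies elsewhere in the genome.

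**Figure D3:**
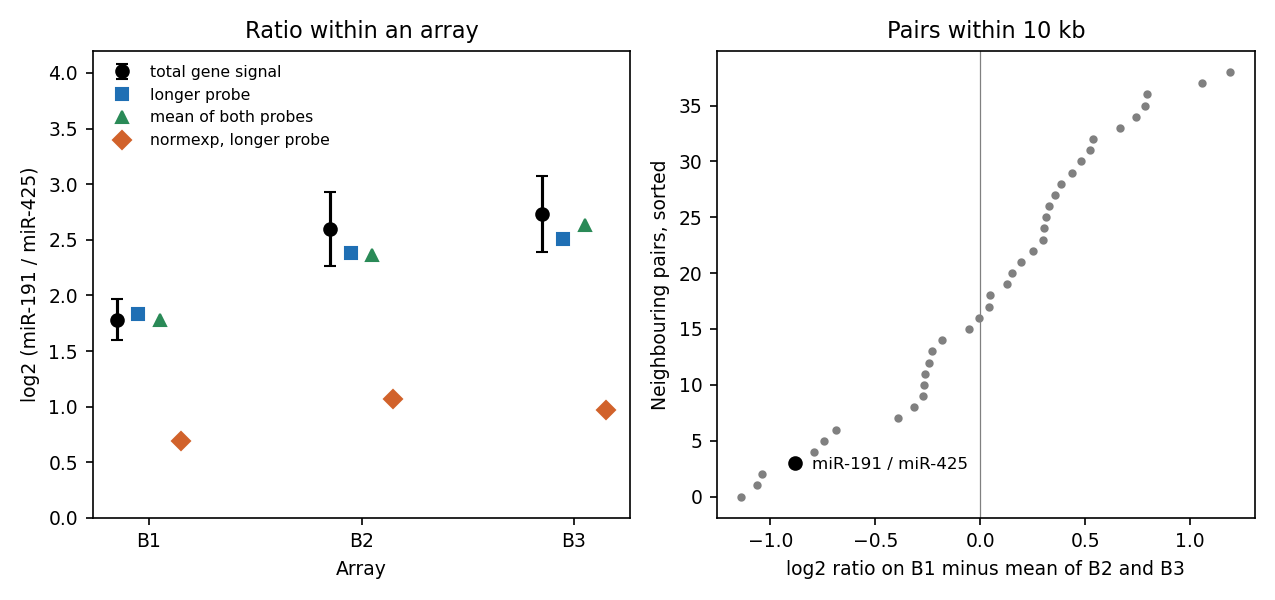
Left, log2 ratio of miR-191 to miR-425 on B1, B2 and B3 from the total gene signal (circles, bars are the software's error), the longer probes, the mean of both probes, and normexp-corrected longer probes; every version is lowest on B1. Right, for each of 39 neighbouring pairs, the log2 ratio of total gene signals on B1 minus the mean of B2 and B3. That of miR-191 and miR-425 (black) is -0.88, and 5 pairs differ from 0 by more.

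Sca1+ and Sca1- cells were compared within lines over all 6 arrays with limma, on signals scaled between arrays, for the 80 miRNAs detected on at least 3 arrays. Called means a Benjamini-Hochberg adjusted p under 0.05. 0 miRNAs were called, 0% of those tested, and 0 had an unadjusted p under 0.05, the members included among those tested. Only 1 Sca1+ array (B1) and 2 Sca1- arrays (B2 and B3) measured either member, and the sizes fitted with D1, D2 and D3 rest on signals that were not detected, many of them set to a floor, and are not given. The smallest adjusted p of all miRNAs was 0.995 with limma. By the value table too, 0 of 80 were called, with 3 at an unadjusted p under 0.05.

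On the bright arrays alone, with the scaling taken over these 3 arrays, miR-191 was 1.997-fold and miR-425 3.07-fold higher on B1 (Sca1+) than on B2 and B3 (Sca1-). The log2 differences were 1.00 (SE 0.28) and 1.62 (SE 0.28), with n = 1 against 2, and they put B1 above B2 and above B3 for both. Over the 78 miRNAs detected on all 3 arrays, the median difference was 0.16, the middle range ran from -0.54 to 0.57, and 5 miRNAs exceeded miR-191 and 1 exceeded miR-425. Over all 90 tested, which include miRNAs not detected on 1 of the arrays, 11 exceeded miR-191 and 3 exceeded miR-425. Other backgrounds, scalings, floors and probe summaries gave differences from 0.54 to 1.32 for miR-191 and from 1.06 to 2.89 for miR-425, all above 0. Not all were beyond their error. With scaling over all probes they were 0.54 and 1.16, each with SE 0.74. The 2.89, from the mean of all probes, had SE 1.15. Calls in this fit rest on 1 Sca1+ array. Their number, and whether a member was among them, moved with the background, the floor and the filter, so nothing is read from them. Leaving out B2 gave 0.99 and 1.67, and leaving out B3 gave 1.01 and 1.56. With a single Sca1+ array, the fraction cannot be told apart from anything else particular to B1.

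**Figure D4:**
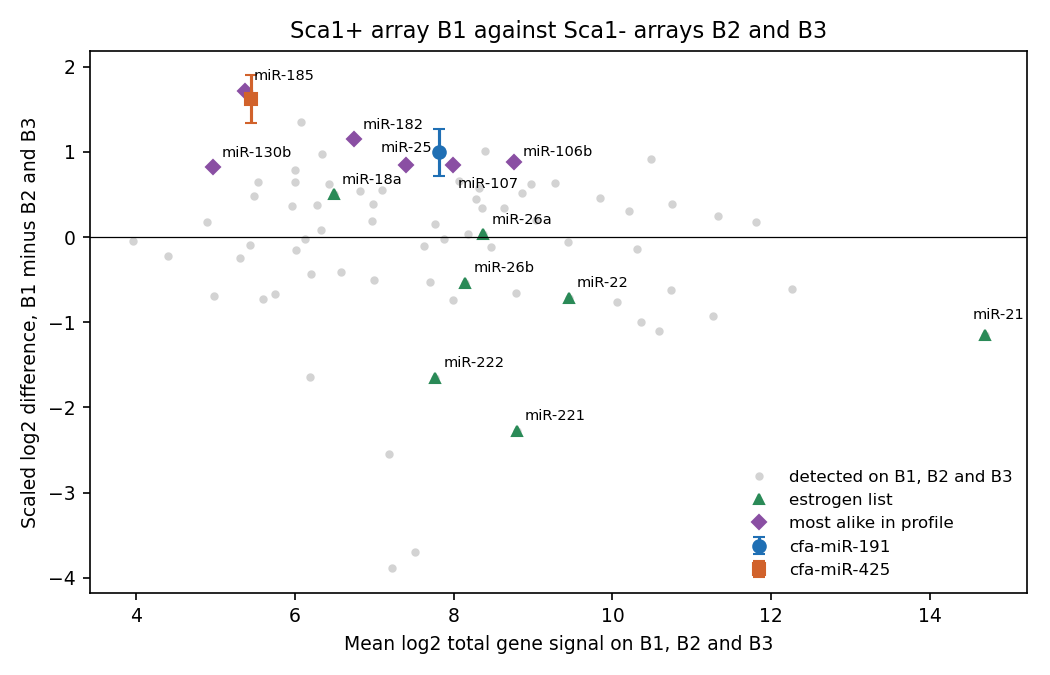
Scaled log2 difference of B1 (Sca1+) from the mean of B2 and B3 (Sca1-) against mean log2 total gene signal for the 78 miRNAs detected on all 3 arrays; bars on miR-191 and miR-425 are the SE of the fit, triangles are the other listed estrogen-linked miRNAs and diamonds the miRNAs most alike in profile. miR-425 (1.62) lies above all but 1 of the 78, miR-191 (1.00) above all but 5, and miR-221 (-2.27) and miR-222 (-1.65) lie far below 0.

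Epithelial and mesenchymal markers differed on B1 as well, while leukocyte markers did not share one direction. Of 7 epithelial miRNAs (the miR-200 family, miR-203 and miR-205), B1 detected 5, B2 detected 1 and B3 detected 0, with sums of 5129, 28.9 and 0.0, and miR-200a and miR-200b were detected on no array. Of 5 mesenchymal and stromal miRNAs, B1 detected 1 and B2 and B3 detected 2 each, summing to 19.9, 635.3 and 623.2. miR-143, miR-145 and miR-214 were detected on no array. Of 6 leukocyte miRNAs, 3, 2 and 3 were detected, summing to 948.4, 219.5 and 181.6. miR-146a, detected on B1 alone, made up 689.7 of the sum on B1. miR-155 read 189 on B1 against 139 and 78.0, miR-223 read 69.5 against 80.9 and 70.9, and miR-146b was detected on B3 alone. On D1, D2 and D3 miR-223 still read 65.7, 59.6 and 61.2, so it did not follow the brightness of the arrays. It is in the leukocyte counts and sums but is not read as a measure of leukocytes. miR-142 and miR-150, which define leukocytes and lymphocytes, were detected on no array. Of the red-cell miRNAs miR-451 read 18.1 on B2 alone of the bright arrays and miR-144 was not detected. miR-486, also listed, had no match by name among the measured miRNAs. Endothelial miR-126 was detected on no array. The part of these cell types in the levels of miR-191 and miR-425 was not tested.

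The other miRNAs of the estrogen network did not share one direction on B1. No estrogen receptor was measured. Besides the members, 5 listed miRNAs are known as regulated by estrogen in breast cells. miR-21, abundant in many tumours, read 18172 on B1 against 32139 and 31945 on B2 and B3 (log2 difference -1.15, SE 0.32). miR-26a, which represses EZH2, read 392 against 342 and 270 (0.03, SE 0.28), and its relative miR-26b 259 against 306 and 287 (-0.54, SE 0.30). miR-181a read 26.9 on B1 alone and miR-181b was detected on no array. Of this set of 7, members included, 5 were tested on the bright arrays, 3 above 0 and 2 below, with a median of 0.03.

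Of 9 listed miRNAs that repress ESR1, 4 were detected. miR-221 read 175 on B1 against 746 and 667 (-2.27, SE 0.29), and miR-222, made from the same transcript, 118 against 346 and 251 (-1.65, SE 0.28). Both lay below B2 and B3, opposite to miR-191 and miR-425. miR-22 read 583 against 696 and 839 (-0.71, SE 0.40), and miR-18a, of the miR-17 cluster, 144 against 85.8 and 58.5 (0.51, SE 0.29). Of these 4, 1 lay above 0 and 3 below, with a median of -1.18 against 0.18 for all 90 tested. miR-18b, miR-20b, miR-145, miR-193b and miR-206 were detected on no array.

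The profiles most like that of each member over B1, B2 and B3 were found by the root mean square difference of centred log2 signals among 77 miRNAs, a description over 3 arrays. Nearest to miR-191 were miR-25 (0.068), miR-107 (0.083) and miR-106b (0.099). miR-25 and miR-106b come from 1 cluster in an intron of MCM7, a replication helicase gene. miR-25 read 290 on B1, 141 on B2 and 115 on B3, and miR-107 448, 203 and 183. Nearest to miR-425 were miR-185 (0.24), miR-130b (0.24) and miR-182 (0.30), with miR-191 at rank 4 (0.42). miR-185 read 138 on B1, 23.3 on B2 and 21.9 on B3. From the side of miR-191, its cluster partner miR-425 was only the 34th nearest of the 77.

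The lines were compared last. By scanner file, 0 of 80 miRNAs were called among the 3 lines (0%, 4 at an unadjusted p under 0.05 with limma). In pairs of lines 0 were called as well (0% each), with 9 unadjusted for CMT-U309 over CMT-U27, 0 for P114 over CMT-U27 and 0 for P114 over CMT-U309. In that reading both CMT-U309 arrays measured miR-191 (417 and 185) and miR-425 (121 and 30.5), 1 of the 2 P114 arrays did (149 and 22.4), and neither CMT-U27 array did. Set against the detection limit of the CMT-U27 arrays after scaling, the CMT-U309 means were not above it for either member, so no fold is given. Without scaling they lay above it, at least 13.7-fold for miR-191 and 3.19-fold for miR-425, so the bound turned on the scaling. By value table, both P114 arrays measured them (417 and 149 for miR-191, 121 and 22.4 for miR-425), 1 of 2 CMT-U27 arrays did (185 and 30.5), and neither CMT-U309 array did. There 24 of 80 miRNAs (30%) were called for P114 over CMT-U309, 14 (17.5%) for CMT-U309 over CMT-U27 and 14 (17.5%) among all 3 lines. These contrasts set B1 and B3, or D1 and B2, against D2 and D3. The members entered the test only through B1, B2 and B3, so for P114 over CMT-U309 their direction was fixed beforehand. For P114 over CMT-U309 the scaled detection limit of D2 and D3 lay above the means of B1 and B3 for both members, and without scaling the means lay at least 12.5-fold and 2.78-fold above it. With the total gene signal in place of probes, by scanner file, 1 of 80 (1.25%) was called among lines, for CMT-U309 over CMT-U27 and for P114 over CMT-U27.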

How the data were processed

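Each of the 6 scanner files gives the intensity of every spot. Per the file headers, the authors ran Feature Extraction with spatial detrending on, and the version given for grid placement is 10.10.1.1. The submitters' processing notes name Feature Extraction 10.7.3.1. Signals were not scaled between arrays. The labels name the dye Cy5, while the files hold 1 green channel; this was not settled. The deposited value table (intensity, 311 features, each column with a median of 0.1) equals total gene signals to a relative tolerance of 0.0001, with 2 columns on their own sample's file and 4 on another's.

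Signals at or below 0 took the array's lowest positive value. Arrays were scaled in log2 by the 75th percentile over probes well above background on all arrays (10 probes of 6 miRNAs, or 122 probes on the bright arrays). Spots were averaged without outliers, and a miRNA took its brightest probe. miRNAs detected on at least 3 of 6 arrays, or 2 of 3, were tested with limma 3.58.1 in R 4.3.3, with terms for line and fraction over 6 arrays. The line pairs the samples, since both fractions were sorted from it. The limma fit was tested on simulated data with normal noise, without dim arrays or a floor, so that test does not cover undetected signals. Arrays with over 50 detected miRNAs are called bright. Named miRNAs were the members, the 3 nearest in profile, neighbouring pairs and the lists. Members, lists, the bright set and its fit were chosen with earlier results of these data known. P-values measure the spread between these samples, which may be technical. The number of arrays limits the precision.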

Additional observations from a re-analysis of the deposited data

How the results depend on the processing

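Over the 6 arrays, the Sca1 comparison called 0 miRNAs under every alternative run, including without the replicate block (0, the fit without the line term) and without each sample in turn (0 to 0); without the dim arrays it called 4. Bright-array counts moved from 4 to 54 with normexp background, 11 when all probes set the scaling, 0 with quantile scaling, 10 with a floor at the detection limit, 2 with the mean of all probes, 0 without a filter (32 at an unadjusted p under 0.05, against 29 with quantile scaling) and 8 among miRNAs detected on all 3 arrays. For lines, the total gene signal gave 1 call among lines, 1 for CMT-U309 over CMT-U27 and 1 for P114 over CMT-U27. The value-table assignment gave 14, 14 for CMT-U309 over CMT-U27 and 24 for P114 over CMT-U309. Without single samples CMT-U309 over CMT-U27 ranged from 0 to 5 calls; the 5 came without either P114 array (B3 or D3). The log2 ratio of miR-191 to miR-425 fell to 0.69, 1.07 and 0.97 on B1, B2 and B3 with normexp background, whose offset draws ratios together by construction. The cause of the other changes was not tested.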
